A study of Mus musculus with 9 samples.

Results

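The transcripts described here are the alternative mRNAs that GENCODE M21 annotates as targets of nonsense-mediated decay (NMD) and that were read often enough to be followed in mouse T cells. A transcript was kept when it carried the annotation type nonsense_mediated_decay, when its estimated counts summed to at least 500 over the 9 libraries, and when its gene name did not begin with Srsf, Tra2, Hnrnp, Clk or Srpk. This left 392 transcripts of 362 genes, out of 109617 transcripts in each table. Of the 4996 transcripts of this type outside the 5 name groups, 1321 had no count in any library. The members were thus chosen by their summed counts, and those sums are description only. The members just inside the threshold were Mtmr12-204 with 500.2 and Stradb-203 with 500.5 counts, and the transcripts just outside it were Khdc4-203 with 499.3 and Lin9-206 with 497.3.

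NMD is the cytoplasmic pathway that degrades mRNAs on which the ribosome stops too early. Splicing leaves an exon junction complex on each junction, and a complex that remains downstream of a terminating ribosome lets the helicase UPF1 and the SMG factors recruit decay enzymes. Cells use alternative splicing into such isoforms to tune the output of a gene, which is well known for splicing regulators and ribosomal proteins, and because the isoforms are degraded, the amount that is sequenced is what decay has left.

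The cells were splenic CD4+ T cells of C57BL/6 mice, an inbred laboratory strain, isolated by a purification that leaves the CD4+ cells themselves without antibody. Before stimulation they had 1 h with the solvent DMSO, here called vehicle, or with Compound 10 at 12.5 µM, which the series describes as a chemical inhibitor of the transcription factor complex NFAT:AP-1, and they were then left unstimulated or stimulated for 2 h with 10 nM of the phorbol ester PMA and 1 µM of the calcium ionophore ionomycin. The groups were vehicle unstimulated (DMSO_US, 2 libraries), Compound 10 unstimulated (Comp10_US, 2 libraries), vehicle stimulated (DMSO_PI, 2 libraries) and Compound 10 stimulated (Comp10_PI, 3 libraries). Nothing in the labels ties the libraries of 1 group to different animals or cultures, so the p-values measure the spread between these libraries, which may be technical. In such bulk RNA, fewer cells that make a transcript and less of it per cell cannot be told apart.

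The libraries held 10669821 to 21852830 estimated counts. Transcripts of rRNA type, mitochondrial rRNA included, took 9.15% to 33.5% of the annotated counts. The vehicle libraries DMSO_US 2 (33.5%) and DMSO_PI 2 (19.4%) stood highest, and below rRNA means both kinds together. Summed over the 7 markers of CD4 T cells the level was 762 to 2282 CPM (counts per 1e6 library counts, scaled by the trimmed mean of M-values), 5 of the 7 rose with the compound in stimulated cells, and CD8 T cell markers summed to 4.43 to 7.31 CPM. The 5 natural killer cell markers summed to 5.90 and 7.91 CPM in DMSO_PI against 20.4, 17.7 and 23.8 CPM in Comp10_PI, and all 4 of those tested rose there. Erythroid markers (4) summed to 12, 10.8 and 11.3 CPM in DMSO_US 1, DMSO_PI 1 and Comp10_PI 1, against 0.120 to 1.33 CPM in the other 6 libraries. B cell markers (5) were highest in the same 3 libraries, at 58.2, 45.4 and 49.4 CPM against 19.0 to 36.8 CPM. The part of these markers in the results below was not tested.

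The stop codons show what makes these transcripts candidates for NMD. In 222 of the 392 (56.6%) the stop lay inside the coding sequence of another transcript of the gene, read in another frame or reached after a skipped exon. In 85 (21.7%) it lay in an exon that no coding transcript of the gene contains, the class that poison exons belong to, and in 42 (10.7%) in sequence that extends a coding exon or keeps an intron. A further 30 (7.65%) shared their stop with a coding transcript. The same 4 classes held 57.7%, 20.1%, 12.2% and 6.79% of all 4996 annotated NMD transcripts. The sequences below were read from the GENCODE M21 transcripts (GRCm38) and are shown because their transcripts carry the results that follow. Each is the 63 bases that end at the stop, 5′ to 3′ along the transcript, with the stop codon in capitals.

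In these transcripts the stop lies in an exon absent from the coding transcripts of the gene:
Rbm39-222: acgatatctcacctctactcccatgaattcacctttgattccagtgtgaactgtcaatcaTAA
Sat1-207: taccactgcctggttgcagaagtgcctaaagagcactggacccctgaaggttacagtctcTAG
Rxylt1-201: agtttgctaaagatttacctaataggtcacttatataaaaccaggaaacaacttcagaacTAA
Rps19-205: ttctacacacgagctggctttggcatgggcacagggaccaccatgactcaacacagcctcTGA
Atp5f1-203: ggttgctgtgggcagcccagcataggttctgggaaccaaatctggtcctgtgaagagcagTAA

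In these transcripts the stop lies in bases that another transcript translates in a different frame:
Ppia-201: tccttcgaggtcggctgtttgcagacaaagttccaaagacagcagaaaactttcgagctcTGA
Cenpl-206: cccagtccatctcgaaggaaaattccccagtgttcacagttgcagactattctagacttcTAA
Gbp4-202: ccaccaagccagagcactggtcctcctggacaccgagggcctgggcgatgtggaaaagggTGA
Arl5b-203: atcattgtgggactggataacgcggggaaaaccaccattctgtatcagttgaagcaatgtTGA

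In Rbm39-222 (chromosome 2, 156177361 to 156180149, minus strand) the reading frame ends in exon 3 of 5, which has 73 bases, and takes 72 of them with TAA included. Its annotated reading frame has 40 codons, against 530 in the longest coding transcript of the gene. In Sat1-207 (chromosome X, 155213132 to 155216449, minus strand) the last base of TAG is base 14 of exon 4 of 7. In Ppia-201 (chromosome 11, 6415870 to 6419815, plus strand), by contrast, the exon with the stop is coding in other transcripts, and TGA ends at base 18 of it, in exon 3 of 5. In Gbp4-202 (chromosome 5, 105115767 to 105139586, minus strand) TGA ends at base 5 of exon 4 of 11.

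NMD in mammals is classically linked to a stop that lies at least 50 bases before the last exon junction. That distance was 50 bases or more in 391 of the 392 members, with a median of 518.5 bases and a range of 45 to 10397. Over all annotated NMD transcripts outside the 5 name groups the median was 337 bases. A median of 3.5 junctions followed the stop, and 66 members had 1. The stop was TGA in 222 members, TAA in 94 and TAG in 76, shares close to those of the whole annotation type (57.8% TGA). Where the start of the reading frame was annotated (339 members), it had a median length of 101 codons.

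**Figure D1:**
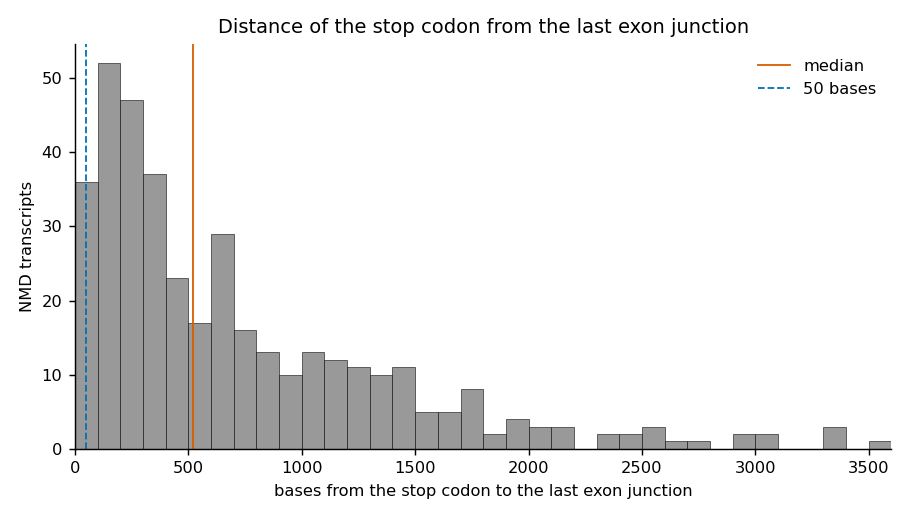
Histogram of the 392 NMD transcripts by the number of bases from the stop codon to the last exon junction, in bins of 100 bases. The solid line marks the median of 518.5 bases, the dashed line 50 bases, and 8 members beyond 3600 bases are not drawn.

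How well a transcript can be told from its neighbours sets how far its counts can be trusted. Only 72 members had 100 or more bases found in no other annotated transcript of their gene, and 246 had none. Their counts are kallisto's assignment of shared reads, and the tables give no error for it, so how precise that assignment is remains unknown. Of the members, 370 stood beside a principal coding transcript of their gene in the tables and 16 beside no coding transcript at all. For 15 members the NMD transcript held 100% of the gene's counts, so no share could be tested there.

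Members held a median of 1219 estimated counts over the 9 libraries, 164 held fewer than 1000 and 23 more than 10000. The median member made up 23.8% of the counts of its gene (quartiles 11.7% and 46.6%), 87 made up over 50% and 41 under 5%. Ppia-201, from the gene of the abundant prolyl isomerase cyclophilin A, held the most, 257846 counts, and 85.1% to 86.8% of its gene in the 9 libraries. Rps19-205, from a protein of the small ribosomal subunit, held 26.4% to 28.9% of its gene. Prdx6-208, from the antioxidant enzyme peroxiredoxin 6, held 45.6% to 53.6%, Eef1b2-205, from a subunit of translation elongation factor 1, 28.8% to 33.4%, and Atp5f1-203, from a subunit of mitochondrial ATP synthase, 64.6% to 69.8%. Shares of these 5 differed little between libraries, and none of them was called in any comparison of level or share. Cyclophilin A, Rps19 and Eef1b2 have processed pseudogenes, so reads shared with these copies make their counts uncertain. Ddx5-208, from an RNA helicase that acts in splicing, was different, with 6.78% and 10.6% of its gene in DMSO_US, 8.16% and 15.8% in DMSO_PI and 4.09% to 7.45% in Comp10_PI. The 2 highest of its 9 shares were those of the 2 libraries richest in rRNA.

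As a whole, members took 20.2% and 20.0% of their genes' counts in DMSO_US, 20.2% and 21.0% in Comp10_US, 17.7% and 18.3% in DMSO_PI, and 18.8%, 19.2% and 19.7% in Comp10_PI. Both stimulated vehicle libraries lay below every other library, and stimulated libraries lay below unstimulated ones. These sums are led by the members with the most counts. The median share over members did not follow this order. It was 23.9% and 21.4% in DMSO_US, 22.6% and 24.9% in Comp10_US, 24.1% and 24.3% in DMSO_PI, and 26.7%, 24.0% and 27.2% in Comp10_PI.

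The first comparison asked which NMD transcripts differ in level when stimulated cells carry Compound 10. With an adjusted p under 0.05 (edgeR's quasi-likelihood test, Benjamini-Hochberg adjustment over 29763 transcripts), 13 members rose and 15 fell, against 2.22% and 2.53% of all transcripts tested. Those 28 are 7.14% of the members, against 4.75% of all transcripts tested, 10.5% of all with at least 500 counts and 11.9% of protein-coding transcripts with at least 500, so the share called among members lay between these backgrounds. The median log2 fold change was 0.04 over members and 0.00 over all transcripts.

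Of the 5 that rose furthest, 2 came from genes of centromere proteins. Cenpl-206, from a subunit of the constitutive centromere network, stood at 2.38 and 1.46 CPM in DMSO_PI and at 12.3, 12.3 and 10.5 CPM in Comp10_PI, as well as at 1.94 and 0.924 CPM in DMSO_US and 4.02 and 5.36 CPM in Comp10_US. The Comp10 libraries lay above the vehicle libraries in both states without overlap. In stimulated cells it rose by a log2 fold change of 2.60 (SE 0.42, adjusted p 0.0181), beside 1.66 for the whole gene. At these levels the libraries outside Comp10_PI together hold too few counts to meet the rule on summed counts. Cenpl-206 was thus kept through Comp10_PI, where it is high. That choice favours such a difference, so neither the lack of overlap in stimulated cells nor this p-value is independent of it. Cenpa-202, from the histone H3 variant that marks the centromere, stood at 32.8 and 25.3 CPM in DMSO_US, 62.8 and 72.6 in Comp10_US, 12.5 and 11.4 in DMSO_PI and 35.2, 38.5 and 43.0 in Comp10_PI. Its level was thus lower with stimulation and higher with the compound in each state. It rose by 1.70 (SE 0.19, adjusted p 0.0065) with the compound in stimulated cells, and the difference in unstimulated cells was 1.22 (SE 0.19, adjusted p 0.053).

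Ifrd1-209, from a transcriptional coregulator gene induced in stress and differentiation, had 92.0 and 104 CPM in DMSO_US, 135 and 107 in Comp10_US, 45.3 and 45.2 in DMSO_PI and 251, 145 and 186 in Comp10_PI. All 3 Comp10_PI libraries were above every other library. It rose by 2.10 (SE 0.26, adjusted p 0.00802), as did its gene (2.04), and its share stayed within 28.1% to 33.0% in the 9 libraries. Parp6-203, from a mono-ADP-ribosyltransferase, went from 2.86 and 2.34 CPM in DMSO_PI to 15.2, 10.5 and 14.0 in Comp10_PI, a log2 fold change of 2.35 (SE 0.30, adjusted p 0.00913). Rxylt1-201, from a glycosyltransferase that acts on dystroglycan, went from 20.3 and 14.2 CPM to 43.1, 57.4 and 51.2, a change of 1.55 (SE 0.23, adjusted p 0.0133). The transcript has 114 bases found in no other transcript of the gene, and its share was 80.4% to 85.9% in all libraries while the gene changed by 1.59.

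The 5 that fell furthest were Adipor2-203, Gbp4-202, Cops5-206, Atg4b-204 and Cul2-202. Gbp4-202, from a guanylate-binding protein of the interferon response, had 71.2 and 55.1 CPM in DMSO_US, 11.2 and 13.0 in Comp10_US, 62.2 and 121 in DMSO_PI, and 11.6, 16.4 and 4.11 in Comp10_PI. Every Comp10 library lay below every vehicle library. It fell by 3.08 on the log2 scale (SE 0.52, adjusted p 0.022) with the compound in stimulated cells, where its gene fell by 2.78, and the value in unstimulated cells was -2.38 (adjusted p 0.151). Gbp4 belongs to a family of similar neighbouring genes, so its counts are uncertain. Atg4b-204, from the protease that processes LC3 in autophagy, went from 34.4 and 22.7 CPM in DMSO_PI to 8.39, 10.0 and 8.23 in Comp10_PI (-1.68, SE 0.23, adjusted p 0.0114). Cul2-202, from a scaffold of cullin-RING ubiquitin ligases, went from 14.3 and 21.5 to 5.72, 6.37 and 5.91 CPM (-1.58, SE 0.22, adjusted p 0.012). Cops5-206, from the catalytic subunit of the COP9 signalosome that regulates those ligases, went from 8.94 and 7.59 to 2.66, 2.93 and 1.80 CPM (-1.74, SE 0.35, adjusted p 0.0358).

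Adipor2-203, from a receptor for adiponectin, was counted in stimulated vehicle cells almost alone. It had 15 and 16.1 CPM in DMSO_PI, 0.166 in 1 Comp10_US library and 0 in the other 6 libraries. Its group floor of 3 counts makes it at least 198-fold lower in Comp10_PI than in DMSO_PI (adjusted p 0.0237) and at least 123-fold higher in DMSO_PI than in DMSO_US (adjusted p 0.0221). The whole gene differed by a log2 fold change of 0.05 and 0.06 in the same comparisons, and the transcript was 5.93% and 12.5% of it in DMSO_PI. Since 558.989 of its counts came from DMSO_PI, it passed the 500-count rule through the group where it is high and had to differ.

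**Figure D2:**
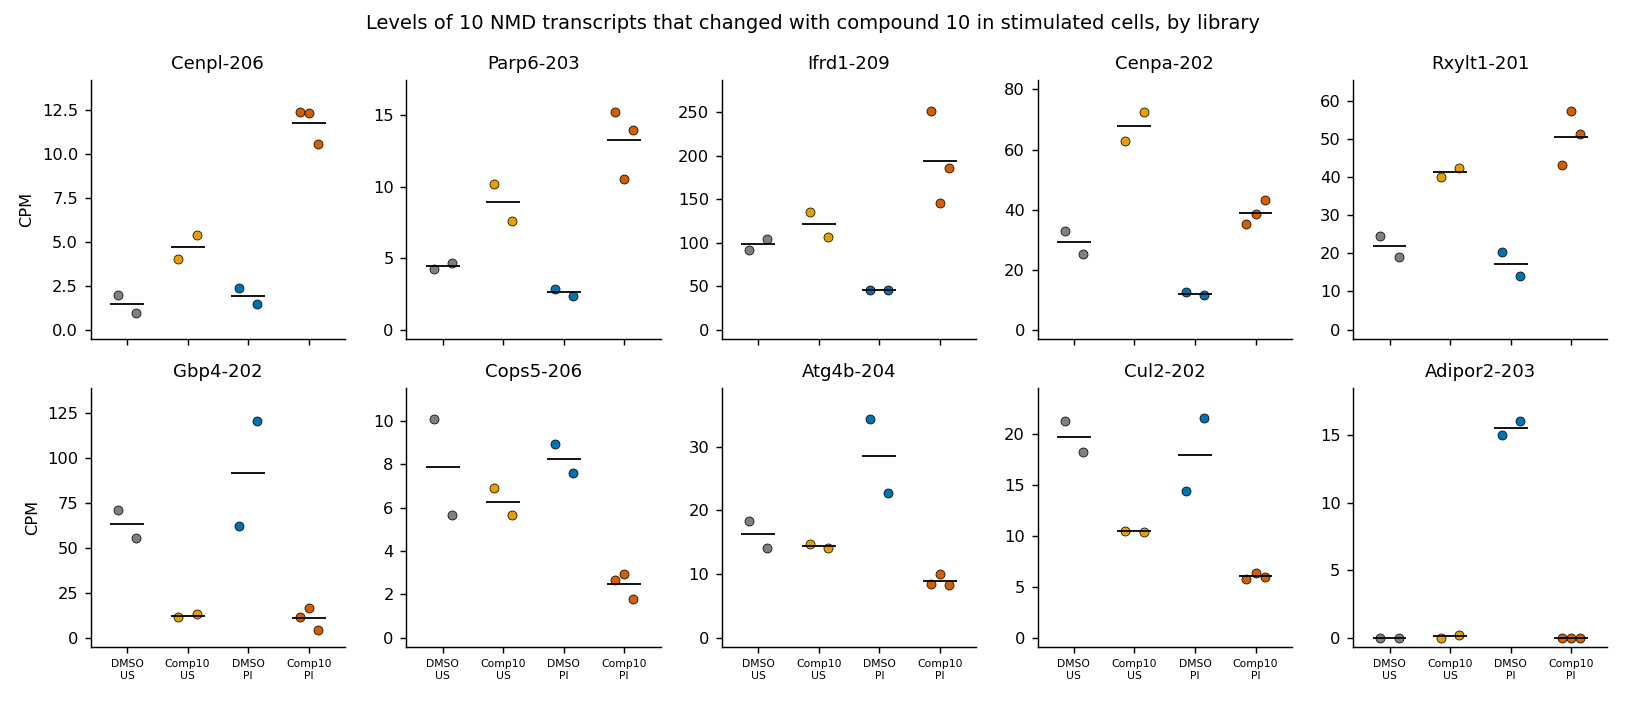
CPM of the 10 NMD transcripts furthest up and down among those called with Compound 10 in stimulated cells, by library, on linear axes. Points are libraries (US unstimulated, PI stimulated), bars are group means, and in each panel the DMSO_PI and Comp10_PI points do not overlap.

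The other 18 called members moved less far. Those that rose included Panx1-201, from the pannexin channel, and Arid5a-205, from an RNA-binding stabiliser of cytokine mRNAs (chosen after their values were seen), and each of these calls was lost in all 9 fits that left out a library. Those that fell included Syncrip-203 (an RNA-binding protein), Qk-202 (the splicing regulator Quaking), Cct8-209 (a chaperonin subunit) and the mitochondrial ribosome members Mrpl3-204 and Mrpl32-201, also chosen after their values were seen apart from Mrpl32-201. Of those 9 fits, Syncrip-203 and Mrpl32-201 were called in 8, Qk-202 in 6, Cct8-209 in 4 and Mrpl3-204 in 1. Syncrip-203 had 7.69 and 7.06 CPM in DMSO_US, 10.4 and 12.6 in Comp10_US, 54.2 and 46.2 in DMSO_PI and 16.9, 16.5 and 20.8 in Comp10_PI. Its rise with stimulation was 2.77 (SE 0.22, adjusted p 0.000706), and it fell by 1.48 with the compound in stimulated cells (SE 0.19, adjusted p 0.00888). The compound call was lost without DMSO_PI 1. The difference between the compound's effects in the 2 states was -2.12 for the transcript (SE 0.28, adjusted p 0.0992).

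Most of these levels had the sign of their gene, whose total includes the member, so part of this agreement is built in. Of the 13 that rose, 10 came from genes that rose, and of the 15 that fell, 14 came from genes that fell. In the other direction, 46 of the 51 members of genes that rose and 70 of the 78 of genes that fell had the sign of the gene. The share had the sign of the level in 10 of the 13 that rose and in 11 of the 14 fallers with a share test. Choosing members by their level favours that sign too. Summed over all transcripts, 47 of the 362 genes rose and 72 fell with the compound in stimulated cells, which is 32.9% against 23.1% of 14011 genes tested. Genes that hold members had a smaller median SE (0.20 against 0.30), which favours calls, and no background of genes with like counts was made. Among the 3 members that rose without a call on their gene were Rabgap1l-205 and Chpt1-207, chosen after their values were seen.

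**Figure D3:**
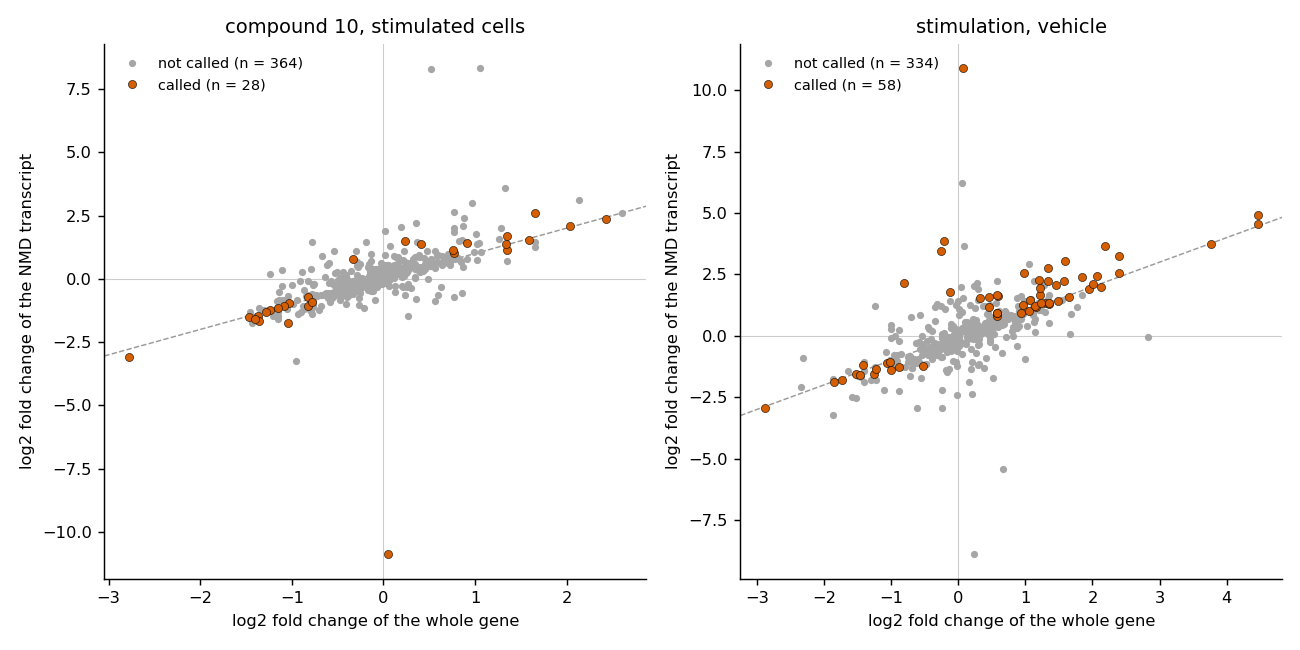
Log2 fold change of each of the 392 NMD transcripts (vertical axis) against that of its whole gene (horizontal axis), for Compound 10 in stimulated cells and for stimulation in vehicle, with called members in orange and the others in grey and the dashed line at equality. Most called members come from genes called in the same direction. In the right panel, 39 of the 42 called risers with a share test had a higher share. The lowest point of the left panel and the highest of the right are Adipor2-203, whose fitted values depend on the prior count and bound nothing.

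These calls depended on the libraries. All 28 kept their sign when any 1 of the 9 libraries was left out, but the number called ran from 6 (without DMSO_PI 2) to 25 (without Comp10_PI 2), with 9 without DMSO_PI 1, 8 without Comp10_PI 3, 13 without Comp10_PI 1 and 16 without either Comp10_US library. Among the 10 transcripts shown by library, 9 calls were lost without DMSO_PI 2 (all but Atg4b-204) and 7 without DMSO_PI 1 (all but Cenpa-202, Rxylt1-201 and Cul2-202). Adsl-205, from a purine synthesis enzyme, was the member called in all 9 of those fits (chosen for that). Without both vehicle libraries richest in rRNA, 0 members were called in edgeR and 95 had an unadjusted p under 0.05. That fit has 1 library in each vehicle group, which is assumed to vary like the other groups. The log2 fold changes there were 2.09 for Ifrd1-209, 1.62 for Cenpa-202, 2.20 for Parp6-203 and -2.54 for Gbp4-202. DESeq2 called 71 members, among them all 28.

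In unstimulated cells edgeR called 1 member with the compound, where DESeq2 called 37 (21 higher and 16 lower) and edgeR without the filter on low counts 7. Mrpl32-201, from a protein of the large mitochondrial ribosomal subunit, had 44.5 and 46.4 CPM in DMSO_US against 17.8 and 14.7 in Comp10_US, and 63.9 and 66.7 in DMSO_PI against 31.1, 25.7 and 25.7 in Comp10_PI. Compound libraries lay below vehicle libraries of the same state. It fell by 1.49 (SE 0.18, adjusted p 0.0302) in unstimulated cells and by 1.25 (SE 0.16, adjusted p 0.0087) in stimulated cells. It was the only transcript of its gene in the tables, so its level is that of the gene. The 1 call among 392 is 0.255%, against 0.457% of all transcripts tested in this comparison and 0.991% of those with at least 500 counts. Of the 362 genes, 16 rose and 12 fell (7.73% against 7.36% of all genes). It was called in 1 of the 9 fits that left out a library, and 81 members had an unadjusted p under 0.05.

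Stimulation by itself, compared in vehicle, changed more members. Here 45 rose and 13 fell, where 5.43% of all transcripts tested rose and 3.06% fell. Together they are 14.8% of the members, against 8.5% of all transcripts tested and 18% of all with at least 500 counts. Of the 362 genes, 91 rose and 57 fell (40.9% against 28.1% of all genes). Here too the median SE was smaller for these genes (0.22 against 0.33), which favours calls. This comparison shares its vehicle libraries with the 2 above. Without both vehicle libraries richest in rRNA the count was 18, and it ran from 25 to 61 when each library was left out.

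The clearest rise was in Arl5b, a small GTPase gene of the trans-Golgi network, whose 2 NMD transcripts are both among the 8 members with the most counts. Arl5b-203 (chromosome 2, 15055287 to 15076595, plus strand) had 13.6 and 10.7 CPM in DMSO_US, 18.6 and 17.4 in Comp10_US, 329 and 239 in DMSO_PI and 374, 400 and 466 in Comp10_PI. All 5 stimulated libraries lay above all 4 unstimulated ones. It rose by 4.55 (SE 0.25, adjusted p 0.000332), and the gene by 4.46. Arl5b-204 went from 6.20 and 7.65 CPM to 225 and 192 CPM, a rise of 4.91 (SE 0.25, adjusted p 0.00025). The share of Arl5b-203 in the gene stayed between 27.8% and 37.1%, so the NMD transcript and the rest of the gene rose together. By the Pearson correlation of log2 odds over the 9 libraries, the members whose share moved most like it were Hspa5-204 (r 0.887), Lsm11-201 (r 0.879) and Mms19-209 (r 0.875). They were picked as the highest among all members, on a share of Arl5b-203 that moved within that narrow range. Whether r of this size arises by chance in such a search was not tested. Nr4a2-206, from the orphan nuclear receptor induced in early T cell activation, likewise rose by 3.72 (SE 0.26, adjusted p 0.000508) beside 3.76 for its gene, and was chosen after its values were seen.

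Leaving aside transcripts named Gm or Rik, such as Gm20605-201 (-2.92), those that fell furthest with stimulation were Hspbap1-201, Sssca1-206 and Hikeshi-202. Hspbap1-201, from a gene for a small heat shock protein partner, went from 14.7 and 12.5 CPM in DMSO_US to 3.02 and 4.26 in DMSO_PI (-1.90, SE 0.29, adjusted p 0.00811). Sssca1-206 went from 9.11 and 11.1 to 2.65 and 3.21 CPM (-1.79, SE 0.35, adjusted p 0.0217). Hikeshi-202, from the import carrier of heat shock protein Hsp70, went from 11.3 and 12.3 to 4.76 and 2.98 CPM (-1.61, SE 0.34, adjusted p 0.0273). Hspbap1-201 and Sssca1-206 made up 100% of their genes, so their levels are those of the genes. Each of the 3 calls was lost when DMSO_PI 1 was left out.

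Of the 45 that rose, 42 had a share test, and 39 of these also had a higher share. By gene totals, which include the member, 36 of the 45 came from genes that rose, 8 from genes that were not called and 1, Rnf13-202, from a gene that fell. These are the members whose level and gene parted, and the next values were chosen for that reason after they were seen. Rbm39-222, from a splicing coactivator that binds U2AF, had 4.40 and 2.18 CPM in DMSO_US, 8.23 and 6.58 in Comp10_US, 37.9 and 34.3 in DMSO_PI and 37.2, 63.7 and 46.4 in Comp10_PI. Its share in the gene was 1.51% and 0.834%, then 3.28% and 2.61%, then 17.9% and 14.6%, and 16.1%, 21.1% and 19.3% in the same order. Unstimulated and stimulated libraries did not overlap in either measure. At these levels the unstimulated libraries alone hold too few counts to meet the rule on summed counts. Rbm39-222 was thus kept through the stimulated libraries, where it is high. That choice favours such a difference, so neither the lack of overlap nor the p-value of its level is independent of it. The level rose by 3.46 (SE 0.40, adjusted p 0.00305) while the gene differed by -0.26 (adjusted p 0.384), and the log2 odds of the transcript within its gene differed by 4.08 (SE 0.40, adjusted p 0.067). The level was called in all 9 fits that left out a library, and had an adjusted p of 0.0506 without both vehicle libraries richest in rRNA.

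Rbm39-222 has no base found in it alone, so its counts rest on how kallisto divided reads among the 25 transcripts of the gene. Rbm39-225 kept 6.98% to 10.4% of the gene in the 9 libraries. Rbm39-223 held 0.685% and 1.14% in DMSO_US and 2.97% and 2.26% in DMSO_PI. Of the 3 NMD transcripts of this gene, Rbm39-222 had the widest range of shares.

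Sat1-207, from the gene of spermidine/spermine acetyltransferase, which carries a known poison exon, had shares of 0.0897% and 0.777% in DMSO_US, 0.543% and 0.363% in Comp10_US, 6.87% and 7.74% in DMSO_PI and 2.23%, 2.74% and 2.95% in Comp10_PI. The stimulated vehicle libraries were highest and the unstimulated ones lowest, with Comp10_PI between. Its level rose with stimulation by 3.88 (SE 0.76, adjusted p 0.022) while the gene differed by -0.21. Sec22b-204, from a SNARE protein of vesicle transport, held 45.6% and 38.7% of its gene in DMSO_US, 40.5% and 40.2% in Comp10_US, 76.3% and 68.3% in DMSO_PI and 64.5%, 62.6% and 65.8% in Comp10_PI. Its level rose by 1.18 (SE 0.22, adjusted p 0.0189). The rise of Sat1-207 was 3.07 without DMSO_US 1, 6.07 without DMSO_US 2 and 5.94 without both vehicle libraries richest in rRNA. Its call was lost without either DMSO_PI library, and the Sec22b-204 call without DMSO_PI 1 or DMSO_US 2. Rnf13-202, from a membrane ubiquitin ligase, went from 0.746 and 0.924 CPM in DMSO_US to 5.03 and 2.51 in DMSO_PI (2.16, SE 0.45, adjusted p 0.0273), while its gene fell by 0.80 on the log2 scale (adjusted p 0.0307), a transcript call lost in 4 of the 9 fits that left out a library.

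The share of a transcript in its gene is the measure in which change of the whole gene drops out. Its test could be run on 377 members, and edgeR's quasi-likelihood test called 0 of them in each of the 4 comparisons, as it called 0 of 22737 transcripts (0%). Unadjusted p-values under 0.05 numbered 58 for stimulation, 22 and 32 for the compound with and without stimulation, and 13 for the interaction. DESeq2 was not run on shares, and a likelihood ratio test called 28, 6, 6 and 2 members in the same order. On counts simulated for the compound in stimulated cells (22737 transcripts) the quasi-likelihood test recovered 0% of 2-fold, 4-fold and 8-fold changes of the odds, so its 0 calls say nothing about whether shares moved. Of the calls of the likelihood ratio test on those counts, 62.4% were false with dispersions drawn gene by gene. Shares are therefore given as values.

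For the compound in stimulated cells the median log2 odds change over the 377 members was 0.11, and 226 of them were above 0. Libraries of the 2 groups did not overlap in 104 members, 72 of them higher and 32 lower with the compound (19.1% and 8.49%). The same shares over all 22737 transcripts were 12.9% and 12.9%, and over those with at least 500 counts 15% and 14.3%. In unstimulated cells, with no library in common, the median was 0.14, and 95 members were higher and 59 lower without overlap (25.2% and 15.6%), against 20.2% and 17.9% of all transcripts and 21.3% and 20.6% of those with at least 500 counts. For stimulation in vehicle the median was 0.00, with 93 higher and 82 lower (24.7% and 21.8%, against 22.3% and 20.4% of all transcripts and 23.1% and 25.2% of those with at least 500 counts).

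Other noncoding transcript types leaned upward with the compound too. Retained-intron transcripts with at least 500 counts had a median of 0.17 in stimulated cells, with 21.8% higher and 9.03% lower, and 0.19 in unstimulated cells, with 33.4% and 13.3%. Processed transcripts had 22.3% higher and 10% lower in stimulated cells, and protein-coding transcripts with at least 500 counts had 13.3% and 15.4%. The direction was therefore not particular to NMD transcripts. Within the members it appeared by the median in each large class of stop, with medians in stimulated and unstimulated cells of 0.16 and 0.19 for exons absent from coding transcripts (83 members), 0.07 and 0.09 for stops in another frame (216), 0.34 and 0.17 for extended exons and kept introns (41), and 0.19 and 0.19 for shared stops (30). By lack of overlap, shared stops showed no lean in unstimulated cells, with 33.3% higher and 33.3% lower, against 30% and 16.7% in stimulated cells. Among the 90 members with at least 50 bases of their own, 28.9% were higher and 11.1% lower in stimulated cells. In unstimulated cells 31.1% of the 90 were higher and 22.2% lower, a weaker lean. Leaving out both vehicle libraries richest in rRNA gave a median over all members of 0.11 in stimulated and 0.08 in unstimulated cells. The size of the median depended on the measure. It was 0.05 and 0.05 by edgeR's diffSpliceDGE, and 0.09 and 0.07 by limma on the log2 odds of TPM.

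**Figure D4:**
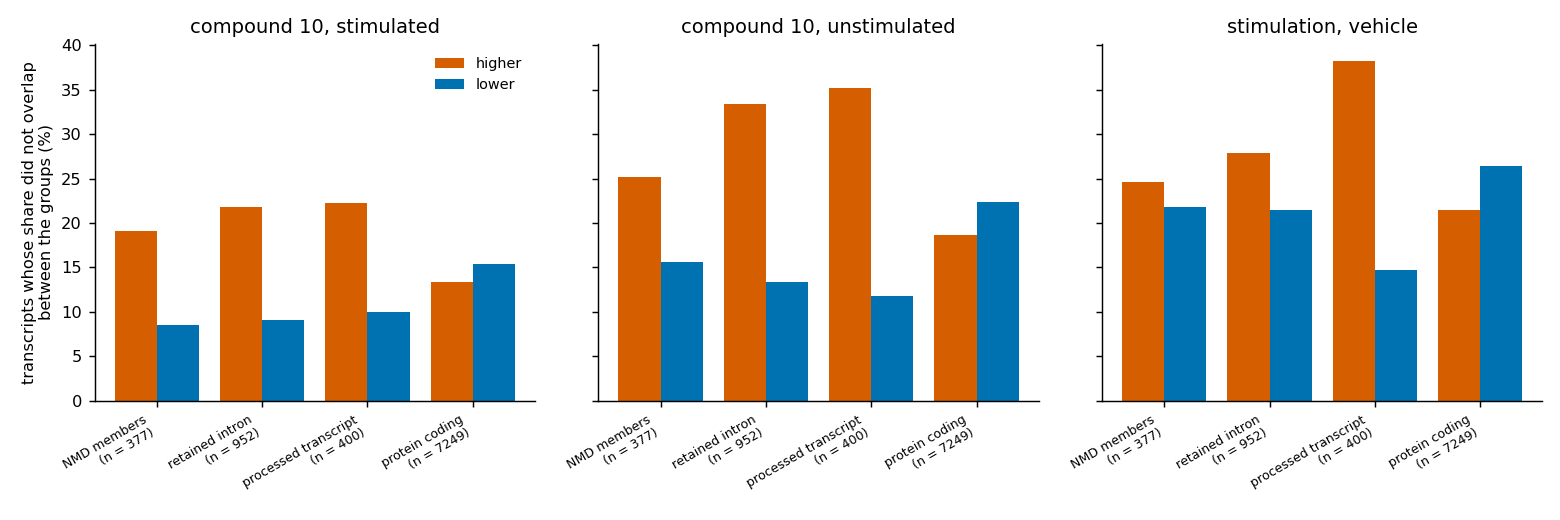
Percent of transcripts whose share of their gene did not overlap between the libraries of the 2 groups, higher (orange) or lower (blue) in the group with the compound or the stimulus, for the NMD members and for 3 other types with at least 500 counts. In both compound comparisons the orange bar is above the blue bar for NMD members, retained introns and processed transcripts, and below it for protein-coding transcripts.

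In both states 40 members were higher without overlap, which is 55.6% of the 72 in stimulated and 42.1% of the 95 in unstimulated cells. In both states 8 were lower, and 11 stood apart in opposite directions. The 40 are 10.6% of the members, against 4.53% of all transcripts tested and 5.96% of those with at least 500 counts, and the 8 are 2.12%, against 4.19% and 5.72%. Of transcripts with at least 500 counts that were higher in stimulated cells, 39.9% were higher in both states. Over the 377 members the log2 odds changes of the 2 states, which share no library, had a Pearson correlation of 0.10. The members of that group described next were chosen after their values were seen. Rabgap1l-205, from a Rab GTPase-activating protein, has 689 bases of its own. Its share was 13.2% and 27.5% in DMSO_US, 37.0% and 29.9% in Comp10_US, 15.5% and 21.4% in DMSO_PI and 32.4%, 38.4% and 38.0% in Comp10_PI. Its level rose by 1.38 (SE 0.29, adjusted p 0.0391) in stimulated cells, called in 2 of the 9 fits that left out a library. Chpt1-207, from a phosphatidylcholine synthesis enzyme, held 20.4% and 21.6%, 36.0% and 30.9%, 17.8% and 11.5%, and 37.5%, 34.4% and 28.5% in the same order of groups, and its level rose by 1.50 (SE 0.33, adjusted p 0.0462), a call lost in all 9. In both transcripts every compound library was above every vehicle library of either state. Eif4a1-201, from the helicase of translation initiation, held 0.267% and 0.722%, 1.35% and 1.06%, 0.917% and 0.587%, and 2.43%, 2.37% and 2.34%, a small part of its gene throughout.

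Khdrbs1-202, from the splicing regulator Sam68, shares its stop with a coding transcript and has 662 bases of its own. It held 10.1% and 8.78% of its gene in DMSO_US, 14.9% and 13.4% in Comp10_US, 3.18% and 1.83% in DMSO_PI and 12.7%, 7.27% and 7.95% in Comp10_PI. The stimulated vehicle libraries were the lowest of the 9. Its log2 odds differed by 2.00 (SE 0.40, adjusted p 0.343) with the compound in stimulated cells and by -2.06 (SE 0.44, adjusted p 0.167) with stimulation.

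**Figure D5:**
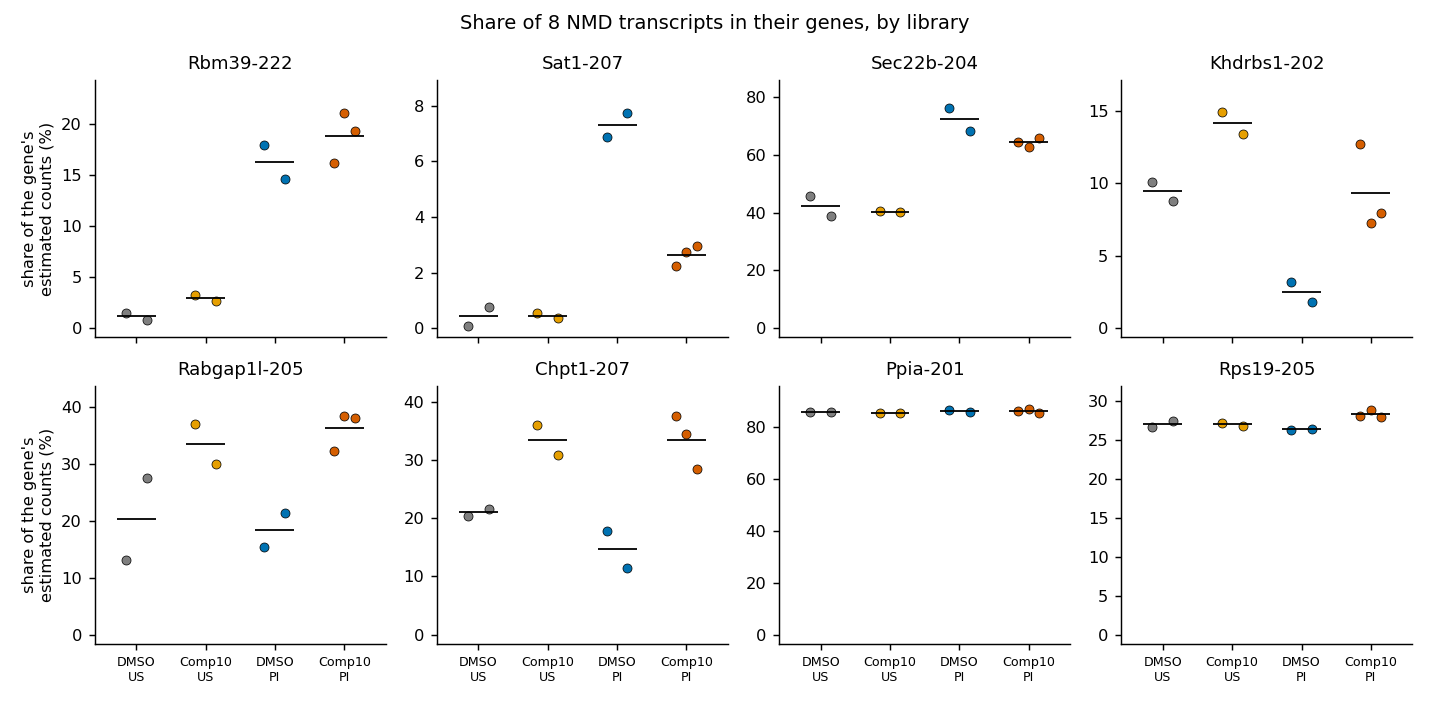
Share of 8 NMD transcripts in the estimated counts of their genes, in percent, by library (US unstimulated, PI stimulated), with bars at group means and a separate linear axis for each panel. Rbm39-222, Sat1-207 and Sec22b-204 are higher in every stimulated library, Khdrbs1-202 is lowest in DMSO_PI, Rabgap1l-205 and Chpt1-207 are higher in every compound library than in every vehicle library, and Ppia-201 and Rps19-205 stay within 85.1% to 86.8% and 26.4% to 28.9%.

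The factors that carry out NMD were examined at the level of whole genes, from lists chosen with earlier results of these data known. Of all 14011 genes tested, 11.7% rose and 11.4% fell with the compound in stimulated cells, 4.45% and 2.91% in unstimulated cells, and 14.4% and 13.8% with stimulation. Of 13 core factors, 2 (15.4%, near the 11.7% of all genes) rose with the compound in stimulated cells and none fell, namely Upf3a, which links UPF proteins to the exon junction (0.78, SE 0.20, adjusted p 0.0124), and Smg9, a subunit of the kinase complex that phosphorylates UPF1 (0.59, SE 0.19, adjusted p 0.0424). The helicase gene Upf1 differed by -0.78 (SE 0.28, adjusted p 0.0674). Stimulation lowered 1 of the 13 (7.69%, against 13.8% of all genes), Pnrc2, a link between UPF1 and decapping (-0.76, SE 0.24, adjusted p 0.0363). The median of the list in stimulated cells was 0.09, against 0.00 over all genes.

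Of 9 genes of the exon junction complex, 3 (33.3%, against 11.4% of all genes) fell with the compound in stimulated cells. Magoh, a core subunit, fell by 0.62 (SE 0.18, adjusted p 0.0286), the helicase Eif4a3 by 0.56 (SE 0.18, adjusted p 0.0367), and Magohb, the paralog of Magoh, by 1.30 (SE 0.41, adjusted p 0.0372). Stimulation raised 4 of the 9 (44.4%, against 14.4%), among them Magoh (1.45, SE 0.21, adjusted p 0.000301) and Pnn (1.00, SE 0.26, adjusted p 0.0122). Of 6 genes of translation termination and the cap, 2 (33.3%) fell, the cap-binding subunits Ncbp1 and Ncbp2, by 0.82 and by 1.00 with the compound in stimulated cells. Of 12 decay enzymes, 3 fell (Cnot1, Lsm1 and Edc4, 25% against 11.4% of all genes) and 1 rose (Dcp1b, 8.33% against 11.7%), and in unstimulated cells 1 fell, Cnot1, the scaffold of the CCR4-NOT deadenylase, by 0.96 (SE 0.21, adjusted p 0.0177).

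A list of 11 tested RNAs that textbooks name as NMD-sensitive is led by stress and growth-arrest genes. With the compound in stimulated cells 4 rose (36.4%, against 11.7% of all genes) and none fell: Gadd45a (2.11, SE 0.18, adjusted p 2.59e-05), Ddit3 (1.30, SE 0.20, adjusted p 0.000754), Cdkn1a (1.40, SE 0.28, adjusted p 0.00363) and the snoRNA host Gas5 (0.73, SE 0.17, adjusted p 0.00709). Gadd45a, Ddit3 and Cdkn1a are also known to be induced through transcription in stress and DNA damage. In unstimulated cells 3 rose (27.3%, against 4.45%), Gadd45a, Ddit3 and Cdkn1a. Stimulation raised 4 (36.4%, against 14.4%), Atf3, Gadd45b, Cdkn1a and Snhg15, and lowered 1, Ddit3 (-0.68, SE 0.21, adjusted p 0.0312). The list's median was 0.73 in stimulated and 0.33 in unstimulated cells.

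Of splicing and RNA-binding genes outside the SR and hnRNP names, 62 were tested. With the compound in stimulated cells 11 fell and 2 rose (17.7% and 3.23%, against 11.4% and 11.7% of all genes), and with stimulation 14 rose and 6 fell (22.6% and 9.68%, against 14.4% and 13.8%). Prpf3, of the U4/U6 snRNP, fell by 1.36 (SE 0.17, adjusted p 0.000258), Luc7l3 by 1.62 (SE 0.29, adjusted p 0.00224) and Thoc1, of the mRNA export complex, by 1.11 (SE 0.18, adjusted p 0.00106). The list held 18 members in 14 genes. Of these, Qk-202 fell with the compound in stimulated cells (from 50.3 and 52.6 CPM to 29.3, 24.6 and 24.9), Rbm39-222 rose with stimulation, and the levels of the other 16 were not called. Qk-202 shares its stop with a coding transcript and held 72.1% to 89.3% of its gene. The 7 members in ribosomal protein genes, Rps19-205 among them, were not called for level in any comparison. Smg1-204, from the kinase that phosphorylates UPF1, was the 1 member in the core list (named for that), at 10.7 and 4.20 CPM in DMSO_PI, 5.01 in DMSO_US 2 and 0 in DMSO_US 1 and both Comp10_US libraries, a scatter within groups as wide as that between them.

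Last, the interaction asked whether the compound's effect on a member differed between the states. For levels 0 of 392 members were called by edgeR's quasi-likelihood test, against 0.0101% of all transcripts tested, 49 had an unadjusted p under 0.05, and DESeq2 called 11. For whole genes 5 of the 362 were called (4 higher, 1 lower, 1.38% against 1.03% of all genes tested).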

How the data were processed

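RNA of 9 libraries had been extracted with Qiagen reagents and amplified with Clontech SMART-seq, per the labels' protocols. The authors quantified reads per transcript with kallisto after trimming with cutadapt and name mm10, per the submitters' processing notes. Neither tool versions nor the annotation are named there. The deposited tables hold the authors' estimated counts, which kallisto divides among transcripts that share sequence, and TPM values, which also divide by effective length. Of 109617 transcripts, 108214 matched GENCODE M21 by identifier without its version, and types, positions and sequences were taken from that release. Only 63964 matched with the version.

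Estimated counts were rounded to whole numbers and tested in R 4.3.3 with edgeR 4.0.16 (quasi-likelihood test, TMM scaling, filterByExpr, all 9 libraries in 1 model of group means, Benjamini-Hochberg adjustment over all features, threshold 0.05). The tests were run per transcript (29763), for the odds of a transcript against the rest of its gene with 1 coefficient per library (22737), and per gene (14011). Alternatives used DESeq2 1.42.0 and limma 3.58.1. The tests were tested on simulated data, where the transcript test recovered 2.24%, 27.6% and 64% of 2-fold, 4-fold and 8-fold changes with dispersions drawn gene by gene, and 8.21%, 57.1% and 84.1% with dispersions on the trend (compound in stimulated cells, 22737 transcripts).

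Members and gene lists were chosen with earlier results of these data known. Named members are the 5 furthest in each direction among those called and not overlapping for the compound in stimulated cells (3 in each direction elsewhere), the 8 with the most counts, the pairs beside the threshold, the 3 most like Arl5b-203, and up to 4 genes per list by p. Any other is said to be chosen after its values were seen. A member counted in these totals is not reported here by name.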

Additional observations from a re-analysis of the deposited data

Results flagged for a closer look

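For 5 whole genes of the 362 that hold members, the compound's effect in stimulated cells differed from that in unstimulated cells by edgeR's quasi-likelihood interaction test (Benjamini-Hochberg adjustment over all genes tested). Values are the log2 effect in stimulated minus that in unstimulated cells. Syncrip, an RNA-binding protein of the hnRNP Q type, stood at -1.211 (SE 0.22, adjusted p 0.0247), with 172 and 172 CPM in DMSO_PI against 63.5, 64.6 and 71.4 in Comp10_PI, while the 4 unstimulated libraries had 60.4 to 68.2. Panx1, a pannexin channel, stood at 1.603 (SE 0.30, adjusted p 0.0293), with 185, 186 and 208 CPM in Comp10_PI and 62.5 to 105 in the other 6 libraries. Cenpl stood at 1.313 (SE 0.26, adjusted p 0.0344), with 16.2 and 16.4 CPM in DMSO_PI and 30.9 to 60.3 in all others. Ifrd1 stood at 1.633 (SE 0.32, adjusted p 0.0374), with 145 and 156 CPM in DMSO_PI and 755, 484 and 620 in Comp10_PI. Ifi209, an interferon-inducible gene, stood at 1.385 (SE 0.28, adjusted p 0.0378), with 29.0 and 33.0 CPM in DMSO_US against 13.0 and 13.1 in Comp10_US and 18.5 to 25 in stimulated cells. The calls were kept in 1, 4, 2, 1 and 2 of the 9 fits that left out a library, in the order given, and none was kept without both vehicle libraries richest in rRNA. Groups of 2 or 3 libraries are too small for a test of single outlying samples.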

How the results depend on the processing

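Counts of called members are given for the compound in stimulated cells, in unstimulated cells, stimulation and interaction, in that order where 4 stand together. For levels (28, 1, 58 and 0), a filter of 50 counts in 2 libraries gave 53, 5 and 89 in the first 3, and DESeq2 gave 71, 37, 108 and 11. Bias-adjusted deviances, added after seeing the data, gave 44 and 3 for the compound in stimulated and unstimulated cells. Limma on log2(TPM + 1) gave 13 in stimulated cells and 2 for the interaction, and no filter gave 7 in unstimulated cells and 3 for the interaction. A replicate block gave 0, 0 and 33 for levels in the first 3 and 0 genes for the interaction, in a design whose labels tie no animal or day to a number. Same-numbered libraries correlated by -0.07 to 0.15 in their deviations from group means, so the numbers were not taken as pairs, although the number 1 libraries of 3 of the 4 groups (not Comp10_US) shared high erythroid and B cell markers. Without both vehicle libraries richest in rRNA (added after seeing the data) levels gave 0, 0 and 18 in the first 3, and genes gave 75, 12, 67 and 0 against 119, 28, 148 and 5. For shares (0 in each), diffSpliceDGE gave 2, 2, 8 and 1, and the added likelihood ratio test 6, 6, 28 and 2. Limma on the log2 odds of counts gave 1 in stimulated cells and 2 for stimulation, limma on TPM odds 2 and the 50-count filter 8 for stimulation.

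Leaving out each library in turn gave 6 to 25, 0 to 1, 25 to 61 and 0 levels, 0 shares in each, and 75 to 126, 5 to 45, 90 to 161 and 0 to 11 genes. The called levels (28, 1 and 58) all kept their sign in these 9 fits. Median level changes over members did change sign under limma on log2(TPM + 1). They went from 0.04 to -0.05 for the compound in stimulated cells and from 0.15 to -0.08 for stimulation. The cause of these differences was not tested. The 246 members with no base of their own, groups of 2 or 3 libraries and a share test that recovered 0% of simulated 8-fold changes limit these data.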
